A study of Mus musculus with 8 samples.

Results

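The mitochondrial ribosomal protein genes described here are the protein-coding genes whose mouse symbol is Mrpl or Mrps followed by a digit. The rule found 78 members, 49 named Mrpl and 29 named Mrps, among 21921 protein-coding genes and 54752 gene IDs in the count table, and used no measured value. They lie on 17 chromosomes, with 11 members on chromosome 11, 8 on chromosome 17 and 1 to 7 on each of the others. Another 5 genes with such symbols are processed pseudogenes and were not counted as members. By known subunit, 51 members encode proteins of the large subunit, 26 of the small subunit, and 1, Mrps36, a protein that is now placed in the oxoglutarate dehydrogenase complex.

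Mitochondrial ribosomal proteins are encoded in the nucleus, made in the cytosol, imported into the mitochondrial matrix and assembled there on a pair of rRNAs transcribed from mitochondrial DNA. The finished mitoribosome translates the few mRNAs of mitochondrial DNA, whose products are membrane subunits of the respiratory chain and of ATP synthase. Heart muscle gains mitochondria in the weeks after birth as it turns to oxidative metabolism, and in humans inherited defects of MRPL3 and MRPL44 cause cardiomyopathy. Many of the proteins have a counterpart in bacteria, and the others are additions found in mitochondria.

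Messenger RNA was sequenced from cardiomyocytes of mouse hearts, isolated on a Langendorff perfusion apparatus, in 8 libraries that form 4 groups of 2: KO at 3w, control at 3w, KO at 1w and control at 1w. All 4 groups had the floxed genotype Carm1fl/fl, in which Cre recombinase removes part of Carm1, a methyltransferase that acts on arginines of histones and other proteins. KO animals had received AAV-CRE, given as AAV9-Cre in the protocol, and control animals AAV-GFP. The stated injection days were postnatal day 3 and 4 for the libraries at 3w and 1 and 2 for those at 1w, in KO and control alike. These days increase along with the replicate numbers, and what they mean is uncertain. The hearts were mosaics of infected and uninfected cells, no sort is described, and the promoter that drove Cre is not given in the sources used here. None of these groups had Cre with unfloxed Carm1, and its own effect and the loss of Carm1 cannot be told apart. Whether paired libraries came from separate animals is not said outright in the labels, and p-values here measure only library-to-library spread, which may be technical.

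Total gene counts ran from 20818285 to 53671626 per library, and the members together took 48366 to 140317 of them. Carm1 stood at 17.3 to 22.4 CPM, the gene's counts relative to the size of the library, in the 4 KO libraries, against 39.1 to 40.5 CPM in the 4 control libraries. Library sizes for CPM were scaled by TMM, the trimmed mean of M-values, and a call means an adjusted p under 0.05 over 14665 genes. Y-linked genes had 3 and 2 counts in the KO libraries at 3w, against 6765 and 4814 counts in those of control, and 5025 and 4282 counts in the KO libraries at 1w, against 1 and 0 counts in those of control. The KO change at either age, the age change within KO or control, and the difference between these changes therefore cannot be told apart from this split. The effects of KO over both ages and of age over KO and control are balanced for it. Carm1 separated KO from control libraries as labelled at both ages, and an exchange of age labels was not tested. Defining cardiomyocyte genes such as Myh6, Tnnt2 and Ttn were present in all libraries, while Actc1 and Pln were listed at 0 in all of them. Scaling by library totals alone moved the median log2 fold change of all genes to 0.25 for KO at 3w, 0.12 for KO at 1w, -0.60 for age in control and -0.45 for age in KO, from values within 0.03 of 0 under TMM. Directions below are relative to the other genes, as TMM sets them. In bulk libraries, fewer cells of a type and less RNA per cell cannot be told apart.

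Of the 78 members, 71 had counts and all 71 passed the filter on low counts, with at least 172 counts in every library. The remaining 7, Mrpl2, Mrpl17, Mrpl33, Mrpl40, Mrpl53, Mrps6 and Mrps34, were listed at 0 in all 8 libraries. The table also lists Cox4i1, a core subunit of cytochrome oxidase, and the cytosolic ribosomal protein gene Rpl13 at 0, so no level is given for these members. The 71 counted members comprise 46 of the large subunit, 24 of the small subunit and Mrps36.

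Per length, the members spanned a 35.6-fold range, with a median of 12.9 CPM per kb of exon over all libraries. Mrps23, a mitochondria-specific protein of the small subunit, was highest, with group means of 80.6 CPM per kb for KO and 87.3 CPM per kb for control at 3w, and 44.2 CPM per kb for KO and 49.8 CPM per kb for control at 1w. Mrps21, the counterpart of a bacterial small-subunit protein, averaged 63.1 CPM per kb over the libraries and Mrpl42, a mitochondria-specific protein of the large subunit, 55.6. Next came Mrpl12, which forms the stalk that recruits translation factors, at 53.1 CPM per kb, and Mrpl34 at 47.0. The lowest levels per length were those of Mrps10 (1.84), Mrps18a (2.46), Mrpl19 (3.41), Mrpl48 (3.62) and Mrpl3 (3.75 CPM per kb). These levels depend on the gene models, whose joined exons measure 8079 bases for Mrps10, 8152 for Mrpl48 and 607 for Mrpl34. The ratio of summed large-subunit to summed small-subunit CPM was 2.37 to 2.42 in KO at 3w, 2.31 to 2.34 in control at 3w, 2.32 to 2.34 in KO at 1w and 2.32 to 2.35 in control at 1w.

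**Figure D1:**
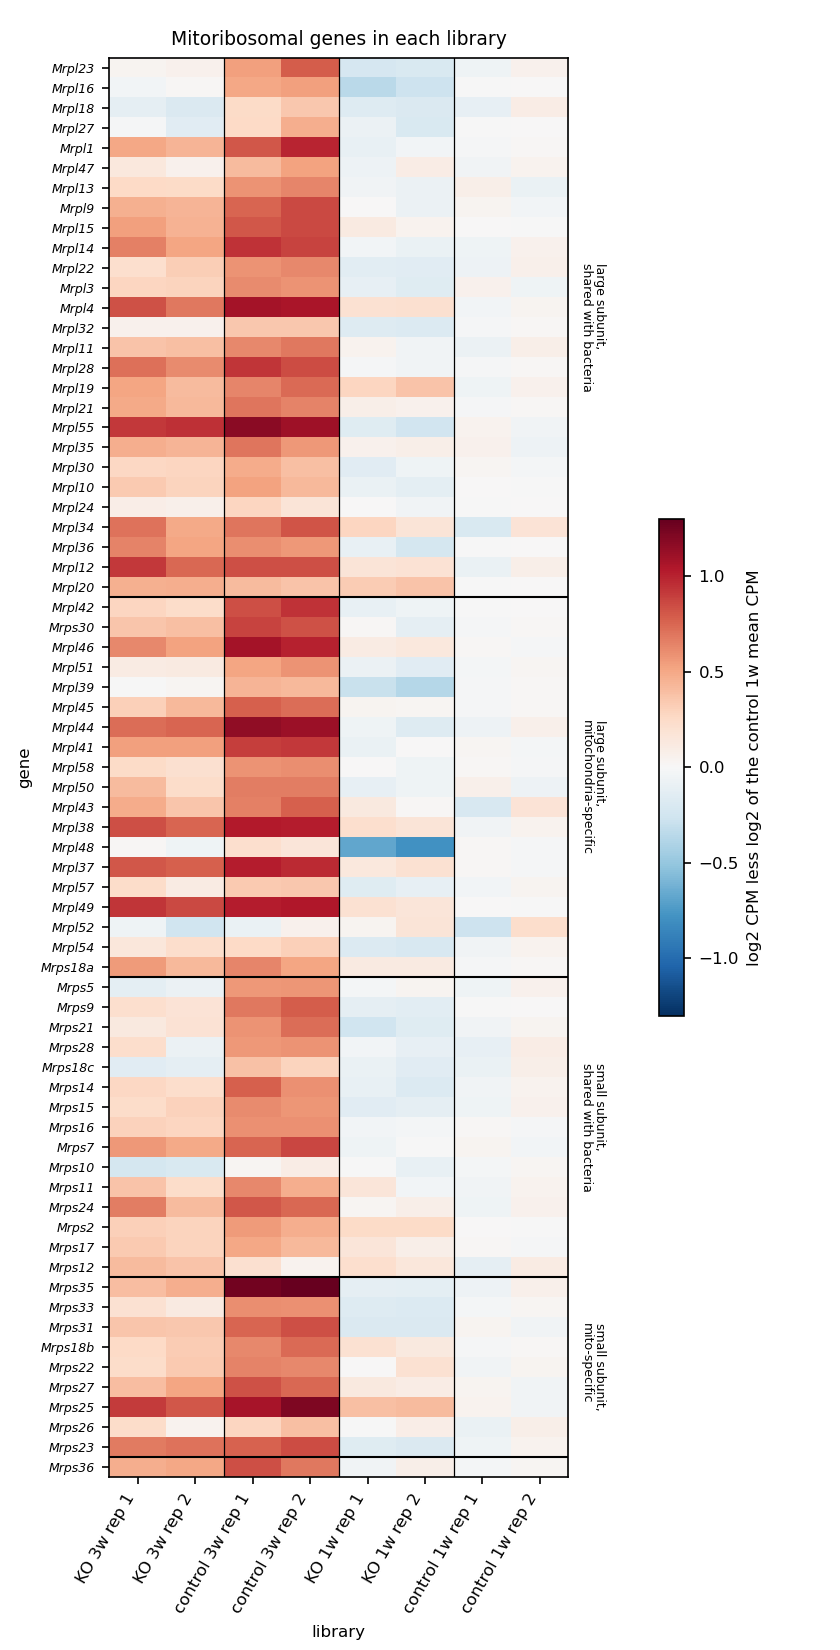
Heat map of the 71 counted mitoribosomal genes (rows, by subunit and class, then by KO change at 3w) in the 8 libraries (columns), coloured by log2 CPM less the log2 of the control 1w mean CPM. The control libraries at 3w are the reddest block for most genes, the KO libraries at 3w are paler, and Mrpl48 in KO at 1w is the bluest entry.

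At 3w most mitoribosomal genes were lower in KO, relative to the other genes. Of 71 tested members 61 were lower and 1 was higher in KO, where 49.2% of all genes tested were called (24.8% as lower and 24.4% as higher). Their median log2 fold change was -0.31, against 0.01 over all genes. Summed over members, the level was 2705 and 2637 CPM in the KO libraries, against 3346 and 3394 CPM in the control libraries. The decline covered both subunits, with 37 of 46 large-subunit members (median log2 fold change -0.30) and 23 of 24 small-subunit members (median -0.33) lower. In the classes with bacterial counterparts, 23 of 27 large-subunit and 14 of 15 small-subunit members were lower, and in the mitochondria-specific classes 14 of 19 and 9 of 9.

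Ranges of the 2 KO and 2 control libraries did not overlap for 64 members with KO lower (90.1%, against 36% of all genes tested) and 2 with KO higher (2.82%, against 36.6% of all genes tested). By calls, 49.2% of all genes passed in this comparison. The median log2 difference between the paired libraries of a member at 3w was 0.0628 in KO and 0.0720 in control, and at 1w 0.0584 in KO and 0.0788 in control. Most of the declines exceeded that spread but were modest, and 4 members were at least 1.5-fold lower. Mrps35 (chr6:147042764-147073991, plus strand, GRCm38), a mitochondria-specific protein of the small subunit, stood at 51.4 and 53.97 CPM in KO at 3w, against 92.6 and 96.7 CPM in control at 3w. The 2 groups were far apart, and the log2 fold change was -0.84 ± 0.045 (SE; adjusted p = 6.41e-25, quasi-likelihood test of edgeR with Benjamini-Hochberg adjustment). Mrps5 (chr2:127587222-127606829, plus strand), whose bacterial counterpart lines the path by which mRNA enters the ribosome, had 33.4 and 34.7 CPM in KO and 54.003 and 54.4 CPM in control at 3w (-0.67 ± 0.051 on the log2 scale, adjusted p = 9.72e-18). Mrpl42 (chr10:95480805-95501940, minus strand) had 199 and 194 CPM in KO, against 293 and 315 CPM in control (-0.63 ± 0.034, adjusted p = 2.33e-24). All 3 genes were lower in both KO libraries than in either control library.

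Mrpl23, which sits at the mouth of the peptide exit tunnel, was at 21.008 and 21.3 CPM in the KO libraries at 3w, against 29.7 and 35.4 CPM in control (log2 fold change -0.61 ± 0.067, adjusted p = 4.99e-11). Its control libraries lay wider apart than those of any other member at 3w. Mrps9, whose bacterial counterpart reaches towards the peptidyl site, was at 62.7 and 60.8 CPM in KO, against 86.5 and 92.5 CPM in control (-0.53 ± 0.043, adjusted p = 6.69e-17). The ranges of KO and control were separate for both genes.

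Mrpl3 and Mrpl44 were named above for cardiomyopathy in humans. At 3w Mrpl3 had 26.1 and 26.2 CPM in KO, against 32.9 and 32.3 CPM in control. Mrpl44 had 40.6 and 41.5 CPM in KO, against 54.3 and 53.1 CPM in control. Both were lower in KO at 3w, by log2 fold changes of -0.32 ± 0.059 and -0.39 ± 0.051 (adjusted p = 6.43e-06 and 2.06e-09). Mrpl45, which attaches the mitoribosome to the inner membrane, and Mrpl58, a hydrolase that frees stalled peptides, were picked for their roles after their values were seen, and had log2 fold changes of -0.39 ± 0.048 and -0.36 ± 0.055.

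Mrps12, the counterpart of a bacterial protein at the decoding centre, was the single member called higher in KO at 3w. It had 20.02 and 19.6 CPM in KO, against 17.5 and 15.5 CPM in control (log2 fold change 0.25 ± 0.075, adjusted p = 0.0039). The groups did not overlap, but the call was lost without the second control library at 3w (0.15, adjusted p = 0.127), without the first KO library at 3w (0.22, adjusted p = 0.0658) and in DESeq2 (adjusted p = 0.0611). The 9 members that were not called at 3w were Mrpl12, Mrpl20, Mrpl34, Mrpl36, Mrpl43, Mrpl52, Mrpl54, Mrpl57 and Mrps18a, none of them in the small ribosomal subunit. Mrpl12 had 108 and 95.6 CPM in KO and 102 in both control libraries, so that KO and control overlapped (log2 fold change -0.01 ± 0.046, adjusted p = 0.935).

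Scaling by library totals left 22 members lower and 6 higher in KO at 3w, with a member median of -0.06 against 0.25 for all genes, and turned the sign of 17 of the 62 called members. Mrps35, Mrps5, Mrpl42, Mrpl23 and Mrps9 were not among those 17, and Mrpl48, Mrpl55 and Mrps23 were. The distance between member and all-gene medians was -0.32 under both scalings. That distance was nearly fixed in advance, because scaling shifts all genes of a library alike, and it is no check of the decline. A share of counts outside the mitochondrial genome is also a scaling by a total. By it, the members took 0.449 and 0.438% of the KO libraries at 3w, against 0.491 and 0.494% of the control libraries. At 1w the shares were 0.419 and 0.419% in KO, against 0.407 and 0.417% in control.

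Markers of other cell types moved in the same libraries. Cardiomyocyte markers summed to 72390 to 72930 CPM in KO at 3w, against 88610 to 93130 CPM in control, and 9 of 10 tested were lower (median log2 fold change -0.33; 5 lower and 2 higher under library totals). Fibroblast markers summed to 819 to 828 CPM in KO at 3w, against 388 to 392 CPM in control, with 9 of 9 tested higher and Tcf21 at 0. Smooth muscle and pericyte markers summed to 2033 to 2038 CPM in KO, against 1119 to 1163 CPM in control, with 10 of 10 higher and none at 0. Macrophage markers summed to 130 to 134 CPM in KO and 84.9 to 86.2 CPM in control, with 9 of 10 higher and none at 0. Atrial markers summed to 610 to 624 CPM in KO, against 213 to 219 CPM in control, with 1 of 6 higher, 5 lower and none at 0. Endothelial markers were higher in 7 of 10 cases and lower in 1, and erythroid markers higher in 2 of 4. Epicardial markers were lower in 6 of 8 cases and higher in 1. The part of these markers in the mitoribosomal decline was not tested. The log2 ratio of KO to control in group means at 3w was -0.34 for the summed members and -0.32 for the summed cardiomyocyte markers. It was -0.44 for the summed nuclear encoded respiratory chain subunits and -0.06 for the summed cytosolic ribosomal proteins. For KO at 1w the ratios of members and cardiomyocyte markers were -0.04 and -0.10. They were 0.71 and 1.02 for age in control, and 0.41 and 0.795 for age in KO.

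**Figure D2:**
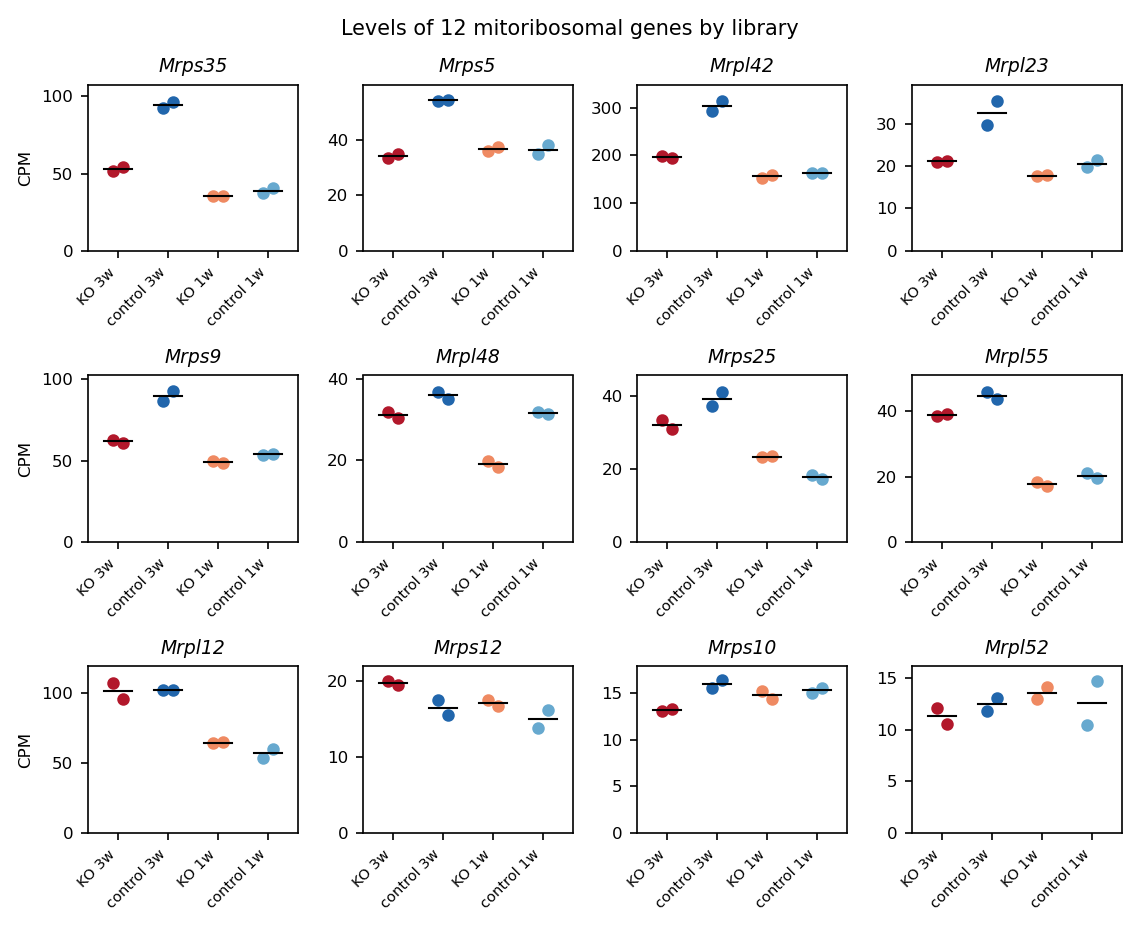
Levels in CPM (vertical axes, each from 0) of 12 mitoribosomal genes in KO at 3w, control at 3w, KO at 1w and control at 1w; each point is a library and each bar a group mean of 2 libraries. Mrps35, Mrps5, Mrpl42, Mrpl23 and Mrps9 have their high values in control at 3w, Mrpl48 has its low values in KO at 1w, and Mrps12 is higher in KO than in control at 3w.

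At 1w members were called in both directions. Of 71 tested members 15 were lower and 9 higher in KO, so that 33.8% were called. Of all genes tested 43% were called, 20% as lower and 23% as higher, a larger share than among the members. The member median was -0.03, against 0.02 over all genes, and the summed level was 2016 and 2006 CPM in the KO libraries, against 2030 and 2094 CPM in the control libraries. Both subunits held members of either direction, with 9 lower and 7 higher in the large subunit and 6 lower and 2 higher in the small subunit. Under library totals the split turned to 3 lower and 18 higher, so which side holds more members depends on the scaling.

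Mrpl48 (chr7:100545751-100608301, minus strand), a mitochondria-specific protein of the central protuberance of the large subunit, fell most at 1w. It stood at 19.9 and 18.4 CPM in KO at 1w, against 32.0 and 31.3 CPM in control (log2 fold change -0.72 ± 0.059, adjusted p = 3.86e-16). The KO libraries were far below the control libraries, and Mrpl48 was the 1 member past 1.5-fold at this age. Mrpl39, which resembles a threonyl-tRNA synthetase, had 49.2 and 46.5 CPM in KO and 59.3 and 60.8 CPM in control (-0.33 ± 0.044, adjusted p = 6.67e-09). Mrpl16, whose bacterial counterpart lies beside the peptidyl transferase centre, had 32.5 and 34.2 CPM in KO, against 41.3 and 41.4 CPM in control (-0.31 ± 0.050, adjusted p = 6.08e-07). In both genes KO and control were separate.

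Smaller falls at 1w were those of Mrpl23, with 17.6 and 17.9 CPM in KO and 19.7 and 21.3 CPM in control (-0.22 ± 0.071, adjusted p = 0.0108), and of Mrps21, with 34.1 and 36.7 CPM in KO and 39.7 and 42.1 CPM in control (-0.21 ± 0.053, adjusted p = 0.000693). The KO libraries were below the control libraries in each, though by a narrow gap. The Mrpl23 call was lost without the second control library at 1w (-0.15, adjusted p = 0.206), without the first KO library at 1w (-0.20, adjusted p = 0.0867) and in DESeq2 (adjusted p = 0.0864), and the Mrps21 call without the first KO library at 1w (-0.16, adjusted p = 0.0636). With library totals, the Mrpl23 and Mrps21 changes at 1w were -0.12 and -0.11 and were not called.

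The largest rise in KO at 1w was that of Mrps25 (chr6:92169525-92184033, minus strand), a mitochondria-specific small-subunit protein. It had 23.2 and 23.5 CPM in KO, against 18.3 and 17.1 CPM in control (log2 fold change 0.41 ± 0.066, adjusted p = 5.24e-07). Exons of Nr2c2, a nuclear receptor gene on the opposite strand, cover 69.8% of the Mrps25 exon length, and without a stated strand setting reads of the pair cannot be told apart. Nr2c2 itself had a log2 fold change of 0.15 at 3w (adjusted p = 0.131), and its value of -0.05 at 1w was not called either (adjusted p = 0.613).

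Mrpl20, the counterpart of a bacterial protein needed to assemble the large subunit, had 29.6 and 30.3 CPM in KO, against 23.4 and 23.6 CPM in control, at 1w (log2 fold change 0.35 ± 0.057, adjusted p = 7.59e-07). Mrpl19 had 17.2 and 18.3 CPM in KO, against 13.6 and 14.7 CPM in control (0.31 ± 0.073, adjusted p = 0.00031), and its exons overlap those of Gcfc2 over 36.0% of their length. Mrps2 stood at 23.4 CPM in both KO libraries, against 19.9 and 19.6 CPM in control (0.25 ± 0.062, adjusted p = 0.000825). Mrpl4, part of the lining of the exit tunnel, had 50.3 and 50.7 CPM in KO and 42.9 and 45.04 CPM in control (0.20 ± 0.047, adjusted p = 0.000468). In all 4 genes both KO libraries at 1w exceeded both control libraries.

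Other cell markers differed at 1w too. Fibroblast markers summed to 2370 to 2395 CPM in KO at 1w, against 1305 to 1310 CPM in control, with 9 of 9 tested higher and Tcf21 at 0. Atrial markers summed to 617 to 623 CPM in KO, against 76.9 to 77.8 CPM in control, with 6 of 6 higher and none at 0. Macrophage markers summed to 151 to 158 CPM in KO and 47.4 to 48.7 CPM in control, with 10 of 10 higher and none at 0. Cardiomyocyte markers summed to 41700 to 42060 CPM in KO, against 44490 to 45280 CPM in control, with 8 of 10 tested lower and 1 higher. Endothelial markers were higher in 10 of 10 cases and epicardial markers in 6 of 8. Smooth muscle and pericyte markers were higher in 6 of 10 cases and lower in 3, and erythroid markers lower in 3 of 4. The part of these markers in the member changes at 1w was not tested.

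Set against each other, 14 members were lower in KO at both ages, 40 were lower at 3w and not called at 1w, and 7 were lower at 3w and higher at 1w. Over all genes tested, 9.87% were lower at both ages (19.7% of the members), 11.8% were lower at 3w and not called at 1w (56.3% of the members), and 3.15% were lower at 3w and higher at 1w (9.86% of the members). The 14 were Mrps9, Mrps15, Mrps21, Mrps23, Mrps31, Mrps35, Mrpl16, Mrpl18, Mrpl23, Mrpl32, Mrpl39, Mrpl48, Mrpl51 and Mrpl55. Those that turned were Mrps2, Mrpl37, Mrpl19, Mrps25, Mrpl4, Mrpl38 and Mrpl49, of which library totals left Mrps25 and Mrpl4 negative at 3w (-0.03 and -0.06, not called) and the other 5 positive. Mrpl54 was lower at 1w and not called at 3w, Mrpl20 and Mrpl12 were higher at 1w and not called at 3w, Mrps12 was higher at 3w and not called at 1w, and 6 members were called at neither age. The KO change was tested directly for a difference between the ages. It was lower at 3w than at 1w in 49 members and higher in 1, where 35.6% of all genes tested were called (17.9% as lower). The median difference was -0.28 on the log2 scale, against 0.00 over all genes, and 66 of 71 members had the lower value at 3w. DESeq2 called this difference in 31 members, 30 lower and 1 higher, and library totals left 20 lower and 4 higher.

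Mrps35 had the largest difference, -0.71 ± 0.067 (adjusted p = 9.72e-14), from log2 fold changes of -0.84 at 3w and -0.13 at 1w. In Mrps25 the KO change turned, to 33.3 and 31.0 CPM in KO against 37.3 and 41.0 CPM in control at 3w (-0.28 ± 0.057), after 0.41 at 1w, a difference of -0.69 ± 0.087 (adjusted p = 1.53e-09). Mrps5, with a log2 fold change of -0.67 at 3w and of -0.00 at 1w, differed by -0.67 ± 0.073 (adjusted p = 1.65e-11). Mrpl46, a mitochondria-specific protein of the large subunit, had 31.5 and 29.4 CPM in KO, against 43.3 and 41.0 CPM in control, at 3w. At 1w it had 22.02 and 22.4 CPM in KO, against 20.7 and 20.2 CPM in control. The difference between its KO changes was -0.60 ± 0.083 (adjusted p = 2.21e-08), and that of Mrpl42 was -0.56 ± 0.049 (adjusted p = 7.42e-15).

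Mrpl48 was the member called the other way, with a smaller decline at 3w than at 1w. At 3w it stood at 31.9 and 30.5 CPM in KO, against 36.9 and 35.2 CPM in control (log2 fold change -0.21 ± 0.056, and 0.03 under library totals), and the difference to 1w was 0.51 ± 0.082 (adjusted p = 6.74e-07). Across the 71 members the KO changes at 3w and 1w had a Pearson correlation of 0.35 and a Spearman correlation of 0.40, against 0.14 and 0.34 over all 14665 genes, as a description over genes that share libraries and depth.

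**Figure D3:**
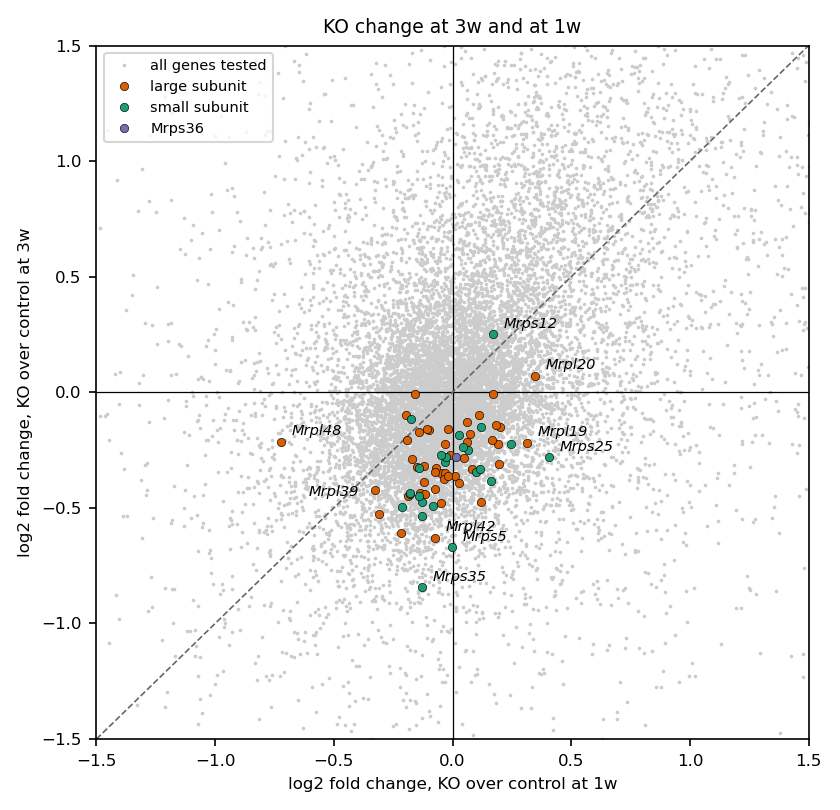
Log2 fold change of KO over control at 3w (vertical axis) against that at 1w (horizontal axis) for the large-subunit members, the small-subunit members and Mrps36, over all genes tested in grey; the axes end at 1.5 in both directions and the dashed line marks equal changes. Nearly all members lie below the horizontal zero line and below the dashed line, with Mrpl48 far to the left and Mrps12 and Mrpl20 above zero.

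With age the members rose in control cardiomyocytes. Of 71 tested members 68 were higher at 3w than at 1w and 0 were lower, where 70.8% of all genes tested were called (34.9% as higher). The 3 without a call were Mrps10, Mrps12 and Mrpl52, and 68 members also passed at an unadjusted p under 0.05 and 68 in DESeq2. Their median log2 fold change was 0.64, against -0.03 over all genes, and 46 members were at least 1.5-fold higher. Under library totals the split was 26 higher and 15 lower, with a member median of 0.07 against -0.60 for all genes, and 21 of the 68 turned in sign. As a share of counts outside the mitochondrial genome the members took 0.491 and 0.494% of the control libraries at 3w, against 0.407 and 0.417% of those at 1w.

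Mrps35 rose most, to 92.6 and 96.7 CPM in control at 3w, against 37.1 and 40.6 CPM in control at 1w (log2 fold change 1.27 ± 0.046, adjusted p = 3.61e-34). The control libraries at 3w also enter the KO comparison at that age, in which Mrps35 had the largest fall. Mrpl55 (chr11:59202486-59206134, plus strand), the counterpart of a bacterial large-subunit protein, had 45.8 and 43.7 CPM at 3w, against 20.99 and 19.7 CPM at 1w in control (1.15 ± 0.058, adjusted p = 8.1e-27). Mrps25 rose by 1.15 ± 0.062 on the log2 scale and Mrpl4 by 1.06 ± 0.045, each with both libraries at 3w above both at 1w. Mrpl44, a protein with a ribonuclease III fold, had 54.3 and 53.1 CPM in control at 3w, against 23.4 and 25.6 CPM at 1w (1.12 ± 0.055, adjusted p = 1.39e-27). All 5 were well separated between the ages.

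In KO cardiomyocytes the rise with age was smaller and took in fewer members. There 57 of 71 were higher and 1 was lower at 3w, where 67.9% of all genes tested were called (33.2% as higher). Their median log2 fold change was 0.37, against -0.02 over all genes, and 11 members were at least 1.5-fold higher. The difference of this rise from that in control is the same contrast as the difference between the KO changes, called as smaller in KO in 49 members. In all, 56 members rose with age in KO and in control, 12 in control with no call in KO, and Mrps12 in KO with no call in control. Under library totals the split in KO was 15 higher and 24 lower, with a member median of -0.05 against -0.45 for all genes, and 34 of the 58 called members turned.

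Mrpl55 rose most in KO, to 38.4 and 39.3 CPM at 3w, against 18.2 and 17.2 CPM at 1w (log2 fold change 1.13 ± 0.058, adjusted p = 3e-26). This was close to its rise in control, with a difference of -0.01 ± 0.083 (adjusted p = 0.92). Mrps23 had 124 and 127 CPM at 3w, against 69.8 and 68.1 CPM at 1w, in KO (0.87 ± 0.040, adjusted p = 7.35e-29). Mrpl44 (0.85 ± 0.056), Mrpl36 (0.74 ± 0.079) and Mrpl49 (0.71 ± 0.061) followed, all with separate ages in KO.

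Mrps5 stood at 33.4 and 34.7 CPM in KO at 3w, against 35.9 and 37.4 CPM in KO at 1w (log2 fold change -0.10 ± 0.053, adjusted p = 0.0749), while in control it rose by 0.56 ± 0.050. Under library totals these values were -0.53 in KO and -0.01 in control. Mrps10 was the single member called lower with age in KO, with 13.1 and 13.4 CPM at 3w and 15.3 and 14.4 CPM at 1w (-0.17 ± 0.077, adjusted p = 0.0458). That call was lost without either KO library at 3w (-0.13 without the first and -0.16 without the second, adjusted p = 0.243 and 0.146), without the first KO library at 1w (-0.12, adjusted p = 0.279), without either control library at 3w (-0.15 each, adjusted p = 0.0765 and 0.076) and in DESeq2 (adjusted p = 0.215). Mrpl52 had no call with age in KO or control, and its control libraries at 1w, with 10.5 and 14.7 CPM, were the widest pair of any member.

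Marker sums also changed with age. Cardiomyocyte markers summed to 88610 to 93130 CPM in control at 3w, against 44490 to 45280 CPM in control at 1w, with 10 of 10 tested higher. Fibroblast markers summed to 388 to 392 CPM in control at 3w, against 1305 to 1310 CPM at 1w, with 8 of 9 lower, and endothelial markers to 366 to 376 CPM, against 859 to 877 CPM, with 9 of 10 lower and none at 0. Smooth muscle and pericyte markers were lower in 10 of 10 cases in control. Atrial markers were higher there in 6 of 6 cases and erythroid markers in 3 of 4. Macrophage markers were higher in 6 of 10 cases and lower in 1, and epicardial markers higher in 5 of 8 and lower in 3. In KO, cardiomyocyte markers summed to 72390 to 72930 CPM at 3w, against 41700 to 42060 CPM at 1w, with 9 of 10 higher and 1 lower. Fibroblast markers in KO summed to 819 to 828 CPM at 3w, against 2370 to 2395 CPM at 1w, with 8 of 9 lower and 1 higher and Tcf21 at 0. Endothelial markers were lower in 9 of 10 cases in KO (427 to 437 CPM at 3w, against 1007 to 1013 CPM at 1w), epicardial markers in 7 of 8 (15.7 to 16.7 CPM, against 46.0 to 47.9 CPM) and atrial markers in 4 of 6 with 1 higher (610 to 624 CPM, against 617 to 623 CPM), with none of these at 0. Erythroid markers were higher in 4 of 4 tested (156 to 160.3 CPM, against 25.9 to 27.4 CPM, Alas2 at 0). Smooth muscle and pericyte markers in KO were lower in 7 of 10 cases and higher in 1. Macrophage markers in KO were lower in 6 of 10 cases and higher in 1. The part of these markers in the member rise in KO or control was not tested.

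**Figure D4:**
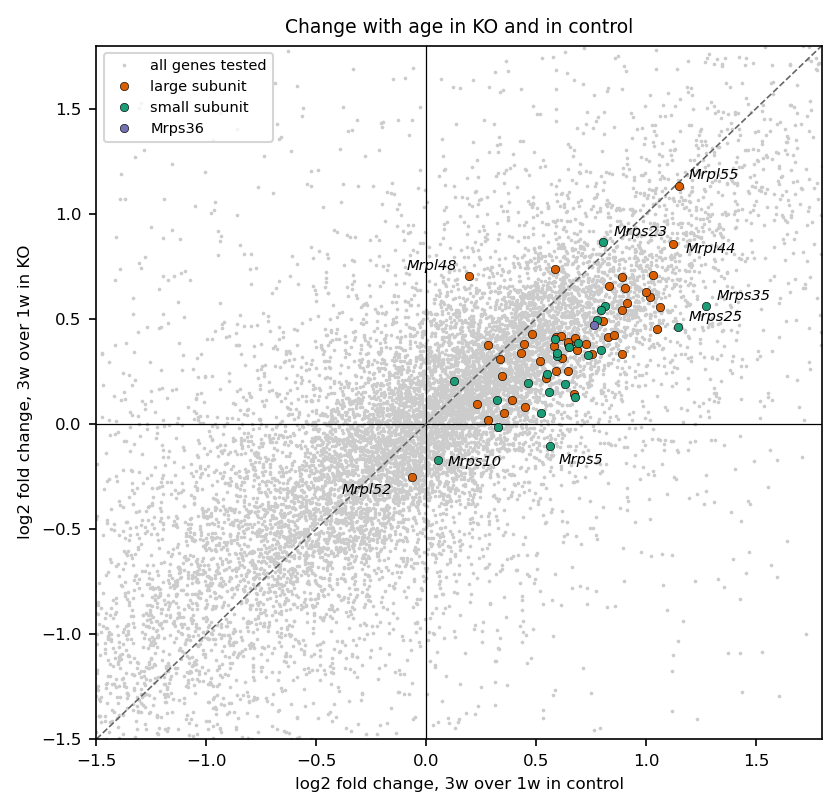
Log2 fold change of 3w over 1w in KO (vertical axis) against that in control (horizontal axis) for the large-subunit members, the small-subunit members and Mrps36, over all genes tested in grey; the vertical and horizontal axes run from -1.5 to 1.8 and the dashed line marks equal changes. Most members lie right of zero and under the dashed line, Mrpl55 lies near it, and Mrps5 is right of zero but just below zero in KO.

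Over both ages together, 28 members were lower and 2 higher in KO, where 30.7% of all genes tested were called (14.5% as lower and 16.3% as higher), with a member median of -0.16 against 0.01. This fit of age and KO carries the difference between the ages in its spread. The count was 17 without the first KO library at 3w and 19 without the second, 51 as the average of the changes at each age, and 10 under library totals, with 5 higher and 5 lower. Mrps35 (log2 fold change -0.49 ± 0.14, adjusted p = 0.0287), Mrpl48 (-0.47 ± 0.098, adjusted p = 0.00772), Mrpl16 (-0.42 ± 0.055, adjusted p = 0.000763), Mrpl23 (-0.42 ± 0.093, adjusted p = 0.00918) and Mrpl39 (-0.37 ± 0.043, adjusted p = 0.000386) fell most. All 5 were lower in KO than in control at each age. The Mrps35 call was lost without any 1 of the 4 libraries at 3w, with values of -0.45 and -0.43 without a control library and -0.41 and -0.44 without a KO library (adjusted p = 0.0575 to 0.0778).

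Mrps12 (0.22 ± 0.067, adjusted p = 0.0345) and Mrpl20 (0.21 ± 0.062, adjusted p = 0.0294) were the members higher over both ages. The Mrps12 call was lost without any of 7 of the 8 libraries, with values of 0.16 to 0.24 and adjusted p = 0.0542 to 0.139, and that of Mrpl20 without any of 5, with values of 0.18 to 0.21 and adjusted p = 0.0653 to 0.0913. With the replicate number, which goes with the stated injection day, as a block, both calls were lost (0.22 for Mrps12 and 0.21 for Mrpl20, adjusted p = 0.0614 and 0.0552), and 19 members were called over both ages in place of 30. By age over KO and control, 66 members were higher and 0 lower, where 66.6% of all genes tested were called (32.3% as higher and 34.3% as lower). The same 66 was the number at an unadjusted p under 0.05, and DESeq2 called 65. Mrpl55 (log2 fold change 1.14), Mrpl44 (0.99), Mrps35 (0.92), Mrpl49 (0.87) and Mrps23 (0.84) rose most. The age split under library totals was 18 higher and 17 lower.

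The 3 relatives of a single bacterial small-subunit protein, Mrps18a, Mrps18b and Mrps18c, have gone separate ways in mitochondria, where the first sits in the large subunit and the others at different places of the small subunit. At 3w Mrps18a had 10.7 and 9.80 CPM in KO, against 11.4 and 10.4 CPM in control, and the groups overlapped (log2 fold change -0.10 ± 0.090, adjusted p = 0.387). Mrps18b had 10.1 and 10.5 CPM in KO, against 12.97 and 13.99 CPM in control (-0.38, adjusted p = 0.000172). Mrps18c had 9.50 and 9.76 CPM in KO, against 13.8 and 12.9 CPM in control (-0.47). The last pair of genes had separate groups. With age in control the log2 fold changes were 0.58 for Mrps18a, 0.67 for Mrps18b and 0.33 for Mrps18c, and in KO 0.37, 0.13 (adjusted p = 0.196) and -0.02 (adjusted p = 0.884). Under library totals the age changes of Mrps18c in control (-0.25) and of Mrps18a (-0.06) and Mrps18b (-0.30) in KO turned negative.

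Mrps36, which bears a ribosomal name but works in the tricarboxylic acid cycle, was also lower in KO at 3w. It had 40.3 and 41.2 CPM in KO at 3w, against 51.8 and 46.7 CPM in control (log2 fold change -0.28 ± 0.053, adjusted p = 9.27e-06), and rose with age in control by 0.76 ± 0.055. At 1w it did not pass (0.01 ± 0.058, adjusted p = 0.881). The mitoribosomal subunits with other names, Dap3, Chchd1, Aurkaip1, Ptcd3 and Gadd45gip1, are no members by symbol. Of these 5, 4 were lower in KO at 3w: Ptcd3, a pentatricopeptide protein at the mRNA channel, at -0.41 ± 0.039, Chchd1 at -0.35 ± 0.055, Dap3, a GTPase of the small subunit, at -0.29 ± 0.048, and Gadd45gip1, at the exit tunnel, at -0.38 ± 0.11 as log2 fold changes. The last call was lost without the second KO library at 3w (-0.21, adjusted p = 0.197), and without the first the value was -0.61. Under library totals 1 of the 5, Ptcd3, was still called lower at 3w (-0.16). Aurkaip1 was not called at 3w (0.04 ± 0.049, adjusted p = 0.509), though library totals called it higher (0.29), and was higher in KO at 1w (0.25 ± 0.055). All 5 rose with age in KO and in control, with a median of 0.90 in control. The rise of Gadd45gip1 in KO (0.49) lost its call without the first KO library at 3w (0.30, adjusted p = 0.0795) and under library totals (0.06).

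The rest of the mitochondrial translation apparatus was examined beside the members, where 24.8% of all genes tested were called lower and 24.4% higher in KO at 3w. Of 24 tested factors that assemble the mitoribosome or modify its RNA, 12 were lower and 0 higher in KO at 3w (median log2 fold change -0.22), among them Mettl17, needed for the small subunit (-0.81 ± 0.084), and Malsu1, which keeps the subunits apart during assembly (-0.53 ± 0.10). Translation factors were lower in 12 of 15 cases and higher in 1 (median -0.26), with the elongation factor Tufm at -0.41 ± 0.036, Guf1 at -0.48 ± 0.068 and the release factor Mtrf1l at -0.91 ± 0.13. Mitochondrial aminoacyl-tRNA synthetases were lower in 12 of 17 cases and higher in 1 (median -0.28), with Sars2 at -0.56 ± 0.079 and Tars2 at -0.39 ± 0.054. Genes for transcription and upkeep of mitochondrial DNA were lower in 6 of 11 cases and higher in 1 (median -0.16), led by Mterf2 (-0.75 ± 0.13). With age in control, 21 of 24 assembly factors, 14 of 15 translation factors and 14 of 17 synthetases were higher, where 34.9% of all genes were. Library totals left 10 higher and 4 lower, 5 higher and 4 lower, and 6 higher and 5 lower in these lists with age. The splits for KO at 3w under library totals were 2 lower and 4 higher for assembly factors, 3 lower and 4 higher for translation factors, 2 lower and 3 higher for synthetases and 2 lower and 4 higher for upkeep genes, so that the direction of these lists is relative to other genes.

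The rRNAs that the members bind come from mitochondrial DNA. mt-Rnr1, the rRNA of the small subunit, had 2601 and 2549 CPM in KO at 3w, against 4062 and 4227 CPM in control at 3w (log2 fold change -0.69 ± 0.026, adjusted p = 1.72e-32). At 1w it had 774 and 765 CPM in KO, against 1633 and 1603 CPM in control (-1.07 ± 0.026). mt-Rnr2, the rRNA of the large subunit, changed by -0.61 ± 0.024 at 3w and by -0.53 ± 0.024 at 1w. Both rRNAs were lower in KO at 3w and at 1w, whereas the member median was near 0 at 1w. How a library made from mRNA samples these rRNAs is not given in the sources used here. Of the 13 protein-coding genes of mitochondrial DNA, 9 were lower at 3w (median -0.37) and 7 at 1w (median -0.11), with 0 higher at either age. Library totals gave 6 lower and 1 higher at 3w (median -0.12) and 3 lower and 1 higher at 1w (median -0.01).

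The larger families gave a further scale. Nuclear encoded respiratory chain subunits, many of which join the products of the mitoribosome, were lower in KO at 3w in 73 of 81 cases and higher in 3 (median log2 fold change -0.43), and lower in 54 and higher in 1 at 1w (median -0.15). Cytosolic ribosomal proteins, which build the other ribosome of the cell, were lower in 21 of 75 cases and higher in 10 at 3w (median -0.07), and lower in 5 and higher in 30 at 1w (median 0.10). Over all genes tested, 24.8% were lower and 24.4% higher in KO at 3w, and 20% were lower and 23% higher at 1w. Under library totals the respiratory chain median for KO stayed negative at 3w (-0.18, 57 lower and 5 higher) and at 1w (-0.05, 24 lower and 6 higher), and the cytosolic ribosomal median at 3w turned (0.18, 2 lower and 39 higher). With age in control, 53 of 75 cytosolic ribosomal protein genes were lower and 4 higher (median -0.29), against 68 higher and 0 lower among the 71 members. These lists are set side by side and the differences between them were not tested. Of 11 tested regulators of mitochondrial biogenesis, 3 were lower and 1 higher in KO at 3w (median -0.06). At 1w 4 of them were lower and 3 higher (median -0.01). Among these regulators Ppargc1a, a coactivator, had 123 and 130.5 CPM in KO at 3w, against 216 and 226 CPM in control at 3w (-0.80 ± 0.035). At 1w it had 125 and 121 CPM in KO, against 394 and 383 CPM in control (-1.66 ± 0.035). Both KO groups lay far below their controls, at 3w and at 1w.

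**Figure D5:**
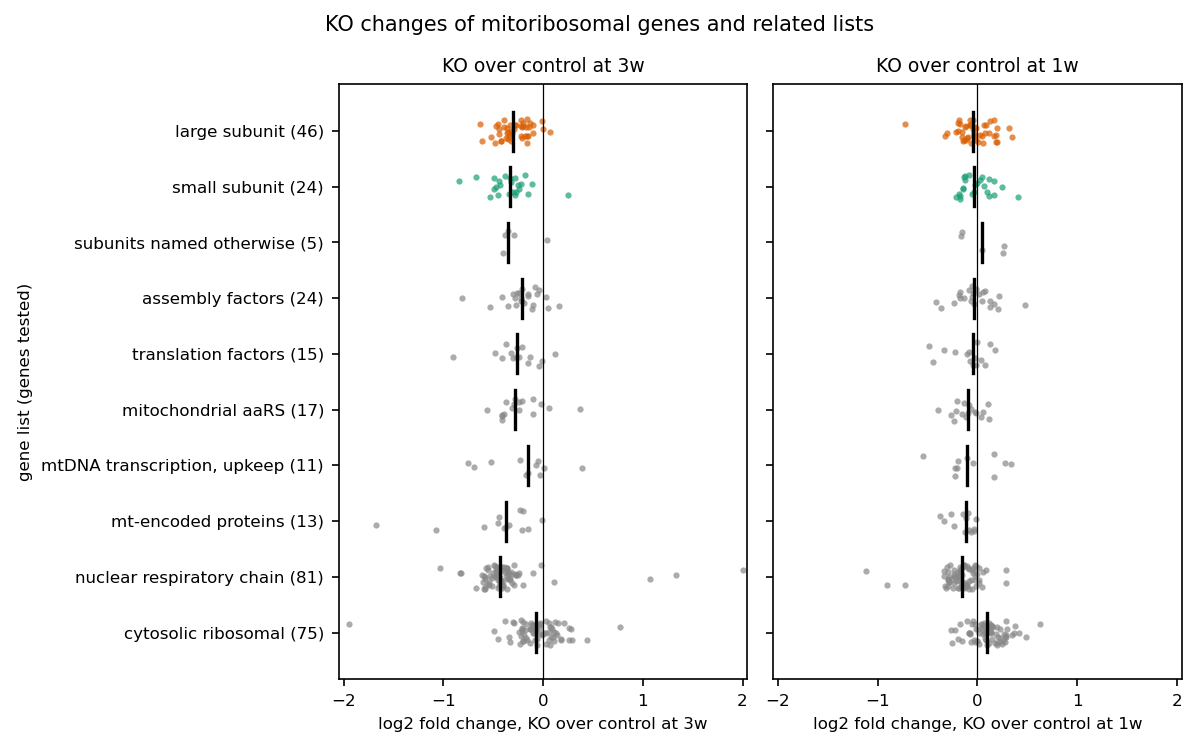
Log2 fold change of KO over control at 3w (left) and at 1w (right) for the genes tested in each list, large and small mitoribosomal subunit at the top; each point is a gene, black bars are medians, and values beyond 2 are drawn at the edge. At 3w the bars of both subunits stand at -0.30 and -0.33 and that of the cytosolic ribosomal proteins at -0.07, and at 1w those of both subunits stand near 0.

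Start-site sequences were looked at as a further description of the members. RefSeq promoter stretches on GRCm38.p6, 250 bases before to 50 after a start, were matched for 69 of the 78 members. They are shown for 5 members, from 150 bases before to 30 after the start: Mrps5, Mrps9, Mrps21 and Mrpl51, which were lower in KO at 3w, and Mrps12, which was higher. Capitals mark letters that match one of the motifs given next, and the sequences run 5′ to 3′ on the strand of the gene.
Mrps5 (chr2:127587276-127587455, plus strand): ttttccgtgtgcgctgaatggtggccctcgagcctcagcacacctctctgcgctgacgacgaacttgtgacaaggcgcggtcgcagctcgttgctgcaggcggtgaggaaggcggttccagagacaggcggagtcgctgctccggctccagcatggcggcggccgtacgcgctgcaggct
Mrps9 (chr1:42851083-42851262, plus strand): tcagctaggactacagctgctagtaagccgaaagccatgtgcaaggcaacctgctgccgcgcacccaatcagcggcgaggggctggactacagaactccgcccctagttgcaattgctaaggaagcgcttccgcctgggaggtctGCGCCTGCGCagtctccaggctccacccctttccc
Mrps21 (chr3:95871485-95871664, minus strand): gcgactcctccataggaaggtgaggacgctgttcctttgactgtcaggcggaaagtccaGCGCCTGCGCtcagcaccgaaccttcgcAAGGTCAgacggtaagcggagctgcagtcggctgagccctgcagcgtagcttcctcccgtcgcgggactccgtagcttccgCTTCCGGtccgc
Mrpl51 (chr6:125192050-125192229, plus strand): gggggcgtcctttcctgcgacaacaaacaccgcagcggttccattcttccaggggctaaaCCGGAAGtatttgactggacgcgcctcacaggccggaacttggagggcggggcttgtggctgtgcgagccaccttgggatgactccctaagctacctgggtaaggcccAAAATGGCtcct
Mrps12 (chr7:28741792-28741971, minus strand): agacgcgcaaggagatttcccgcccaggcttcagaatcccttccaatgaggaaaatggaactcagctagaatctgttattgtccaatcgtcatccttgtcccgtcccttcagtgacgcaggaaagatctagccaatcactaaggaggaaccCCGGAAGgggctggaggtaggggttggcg
The Mrps9 and Mrps21 stretches hold the NRF1 letters, those of Mrps21, Mrpl51 and Mrps12 the ETS letters, that of Mrps21 the ERR letters, that of Mrpl51 the YY1 letters, and that of Mrps5 none.

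Both strands of the whole stretches were searched for 5 motifs. These motifs were chosen with knowledge of mitochondrial promoters, and their part in the changes of the members was not tested. GCGCA and GCGC with any 1 base between them, bound by NRF1, a regulator of nuclear genes for mitochondria, were present for 18.8% of the matched members, against 4.603% of all 32851 promoters and 10.6% of the tested genes matched. CCGGAAG, bound by ETS factors such as GABP, was present for 37.7% of members, against 8.86% of all promoters and 18.7% of tested genes. AANATGGC, the core bound by YY1, was present for 30.4% of members, against 6.05% of all promoters and 9.43% of tested genes. Within the 50 bases after the start and on the strand of the gene, these letters were found for 23.2% of members, against 1.38% of all promoters and 3.42% of tested genes. AAGGTCA, bound by estrogen-related receptors, was present for 5.797% of members, against 4.72% of all promoters and 3.90% of tested genes. CACGTG, the E-box, was present for 7.25% of members, against 7.15% of all promoters and 11.6% of tested genes. The ETS and YY1 letters can overlap in AAG. The member promoters had a median of 58.7% G and C, against 52.7% over all. Among tested members the median log2 fold change of KO at 3w was -0.34 in the 12 with the NRF1 letters and -0.29 in the 51 without, -0.32 in the 23 with the ETS letters and -0.29 in the 40 without, and -0.27 in the 21 with the YY1 letters and -0.33 in the 42 without. It was -0.17 in the 4 with the ERR letters and -0.30 in the 59 without, and -0.11 in the 4 with the E-box and -0.32 in the 59 without.

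Many members share a start region or exons with a neighbour. A protein-coding gene on the opposite strand started within 1000 bases of the start of 33 members. How common such neighbours or overlaps are over all genes was not counted. Of the 27 such neighbours that were tested and are no member, 8 were lower and 2 higher in KO at 3w, where 24.8% of all genes tested were called lower and 24.4% higher. The neighbours had a median log2 fold change of -0.08, while the 30 tested members of these pairs had a median of -0.33. Mrps12 and Sars2, the gene of the mitochondrial seryl-tRNA synthetase, start 172 bases apart on opposite strands, and at 3w Mrps12 was called higher (0.25) and Sars2 lower (-0.56 ± 0.079, with 12.005 and 13.5 CPM in KO, against 19.3 and 18.3 CPM in control). At 1w neither was called, at 0.17 for Mrps12 and 0.11 for Sars2. Exons of another gene overlapped those of 29 tested members, of which 26 were lower in KO at 3w (median -0.32). Of the 42 without an overlap, 35 were lower and 1 was higher at 3w (median -0.31), 12 were lower and 5 higher at 1w, and 39 were higher with age in control.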

How the data were processed

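The deposited data were 1 table of gene counts from RNA sequencing of 8 libraries. Per the submitters' processing notes, the authors used FastQC, MultiQC, HISAT2, featureCounts, DESeq2 and the build mm10. No version, strand setting or annotation is given in the sources used here. Libraries were made with SMART and Nextera XT kits, per the labels' protocols. Groups came from the labels, and all columns belonged to a sample. GENCODE M21 named 54723 of the gene IDs and 29 had no name.

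Genes were kept by edgeR's filterByExpr (minimum count 10, minimum total 15), libraries were scaled by TMM (factors 0.759 to 1.23), and the quasi-likelihood F-test of edgeR was applied, with robust dispersions, in 1 fit of 4 group means (4 residual degrees of freedom, common coefficient of variation 3.03%), with Benjamini-Hochberg adjustment over all 14665 genes. Effects over both ages or over KO and control came from an additive fit (5 residual degrees of freedom, 10.9%). SEs are the absolute log2 fold change divided by the square root of F. Alternatives were DESeq2's Wald test and size factors, library totals, scaling without mitochondrially encoded genes, other filters, fits of fewer groups, the replicate number as a block, and leaving out each library. The gene lists beside the members were also scaled by library totals, a check added after seeing the data. The procedure was run on simulated counts with 200 genes changed per comparison. Far more genes were called in these data, so that run does not test the scaling. R 4.3.3, edgeR 4.0.16, limma 3.58.1 and DESeq2 1.42.0 were used.

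The members and gene lists were chosen with earlier results of these data known. Members are named by rule: the 5 largest rises and 5 largest falls of each comparison, those against the direction of most, the highest and lowest per length, the Mrps18 genes and the subunits with other names. Mrpl45, Mrpl58, Mrps36 and the genes shown by promoter were chosen outside this rule, after their values were seen.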

Additional observations from a re-analysis of the deposited data

Results flagged for a closer look

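The KO change differed between the ages in the test of that difference (quasi-likelihood test of edgeR with Benjamini-Hochberg adjustment). It was lower at 3w than at 1w in 49 of 71 members and higher in 1, Mrpl48. The 5 largest differences on the log2 scale were those of Mrps35 (-0.71), Mrps25 (-0.69), Mrps5 (-0.67), Mrpl46 (-0.60) and Mrpl42 (-0.56), in 2 libraries of each group. The Y-linked counts are split in opposite directions between KO and control at 3w and at 1w, and this difference cannot be told apart from that split. With 2 libraries a group, no single library could be tested as an outlier.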

How the results depend on the processing

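Scaling by library totals left fewer members called in 5 comparisons, by over 1.5 times: 28 for KO at 3w, 41 for age in control, 24 for the difference between the KO changes, 10 for KO over both ages and 35 for age over KO and control. It also turned the member median for KO at 1w (0.0666), for KO over both ages (0.0136) and for age in KO (-0.0527), and the age changes of Mrps18c in control (-0.25) and of Mrps18a (-0.05641), Mrps18b (-0.30) and Ppargc1a (-0.38) in KO. DESeq2 called 31 members for the difference between the KO changes, and the average of the KO changes called 51 over both ages.

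Same-numbered libraries, which share a stated injection day within an age, did not deviate together. Their deviations had correlations of -0.0157 between KO and control at 3w and -0.0161 at 1w. Between groups of different ages, where the stated days differ, the correlations were -0.022 to 0.0083. With the replicate number as a block, 19 members were called for KO over both ages, 24 at 1w and 62 at 3w. There were 68 and 58 for age in control and KO, 49 for the difference and 64 for age over both. Leaving out 1 library gave 17 to 27 calls at 1w, 54 to 64 at 3w, 68 to 69 for age in control, 53 to 60 for age in KO, 38 to 53 for the difference, 17 to 29 for KO over both ages and 61 to 66 for age over both. Among the log2 fold changes of named genes recomputed under the alternatives, 1414 kept their call or lack of one, 75 lost their call, 11 gained one and 4 turned. A turn in sign was counted only where the main or the alternative fit had a call, and turns without a call are among the 1414. The cause of these changes was not tested. With 2 libraries a group, small changes of the members lie near the limit of the test.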
